A study of Mus musculus with 6 samples.

Results

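The histone genes were read by 68 probes under 50 gene names, chosen by name from the 41163 array probes (27370 names) that entered the analysis. Of these, 45 probes under 38 names belong to the replication-dependent clusters, whose names start with Hist1, Hist2, Hist3 or Hist4. The other 23 probes, under 12 names, belong to replacement histones: the linker histones H1f0 and H1fx, the H2A variants of the H2af names, and H3f3a and H3f3b, which both encode H3.3. RNA came from sorted liver CD8+ T cells of female C57BL/6 mice, 13 to 14 weeks of age. Both groups carried dnTGFβRII, a transgene for a receptor chain of TGF-beta that binds its ligand but passes on no signal. The TG group carried it alone, and the TGC3 group, dnTGFβRII CXCR3-/-, was also without CXCR3, a chemokine receptor. There were 3 samples a group, with 1 one-colour array for each (TGC3 1 to 3 and TG 1 to 3). The promoter that drives the transgene, and whether a sample was 1 mouse or a pool, are not given in the sources used here, so a p-value reflects only how far these samples spread, which may be technical. Array signals cannot tell a change in RNA per cell from a change in how many cells of a kind the sort held.

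Histones are the proteins around which DNA is wrapped: H2A, H2B, H3 and H4 form the core of the nucleosome, and H1 binds the linker DNA between cores. Replication-dependent histone genes are intronless, lie in clusters and are transcribed mainly in S phase, when new DNA has to be packed. Their mRNAs usually end in a conserved stem-loop instead of a poly(A) tail, and the stem-loop binding protein Slbp carries them through processing and translation. Replacement histones are made through the cell cycle from ordinary polyadenylated mRNAs and are placed into chromatin outside replication as well. In T cells, bulk histone supply therefore goes with division, as it does in other cycling cells.

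Letters of the stem-loop were found in 3 replication-dependent probes, shown here because they hold the stem-loop string or a searched part of it. Other parts of the string were not searched for. The Hist1h2ae probe begins with the letters found in it, so the rest of that probe lies beyond the stem-loop. Capitals mark letters of the stem-loop, searched as a 6-base stem around the loop TTTC, and each is a stretch of a 60-base probe, written 5′ to 3′. The Hist1h3a probe lies at chr13:23853756-23853815 (minus strand), the Hist1h2ab probe at chr13:23843392-23843451 (plus strand) and the Hist1h2ae probe at chr13:23662489-23662548 (minus strand), all in mm9 as the array files give it.
Hist1h3a: attaaccaaaGGCTCTTTTCAGAGCCaca
Hist1h2ab: gaaagttaaccaaaacaaaGGCTCTTTTCA
Hist1h2ae: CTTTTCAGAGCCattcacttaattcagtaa
The whole string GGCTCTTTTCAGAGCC was found in 1 of 41163 probes, that of Hist1h3a. The shorter GGCTCTTTTCA was found in 2 (Hist1h3a and Hist1h2ab) and CTTTTCAGAGCC in 2 (Hist1h3a and Hist1h2ae), on the probe strand.

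Many members are near copies of each other, and their probes share sequence. The H2A probes below show this across the line between the classes: Hist1h2aa (chr13:24026659-24026718, plus strand) and Hist1h2af (chr13:23626108-23626167, plus strand) are replication-dependent, and H2afj (chr6:136757181-136757240, plus strand) is a replacement H2A. Capitals mark the 29 bases that all 3 hold.
Hist1h2aa: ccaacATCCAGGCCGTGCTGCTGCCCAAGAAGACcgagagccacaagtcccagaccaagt
Hist1h2af: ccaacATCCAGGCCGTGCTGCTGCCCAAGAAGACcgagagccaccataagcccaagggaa
H2afj: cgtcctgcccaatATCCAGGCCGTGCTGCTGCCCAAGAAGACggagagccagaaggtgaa
The Hist1h2aa and Hist1h2af probes share an unbroken run of 44 bases. Signals of such probes cannot be taken as independent readings of different genes.

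In TGC3 cells the replication-dependent histone genes were higher as a class, and the replacement histones mostly were not. Of the 45 replication-dependent probes, 39 were tested, being well above background on at least 3 of the 6 arrays. Of these, 28 (71.8%), under 24 gene names, were higher in TGC3 and 0 were lower by limma (two-sided, adjusted p under 0.05 over the 25103 probes tested); at an unadjusted p under 0.05 there were 28 higher and 2 lower. Over all tested probes 13.7% were higher and 8.37% lower. The median change of the 39 was 0.89 on the log2 scale (1.86-fold), beside -0.02 over all tested probes, and their range ran from -0.41 to 1.97. Changes here are differences of mean log2 signal, TGC3 minus TG, after each array was scaled to its 75th percentile.

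The groups did not overlap for 30 of the 39 probes with TGC3 above TG, and for 2 with TGC3 below, while 21.8% of all tested probes separated upward and 22.4% downward. At least 2-fold and past the threshold were 14 of the 39, against 2.57% of all tested probes. The share of past probes by histone was 5 of 6 for H1 (median change 1.05), 11 of 13 for H2A (1.12), 5 of 10 for H2B (0.81), 1 of 3 for H3 (0.15) and 6 of 7 for H4 (0.72). By cluster it was 21 of 27 in Hist1, on chromosome 13, 4 of 7 in Hist2, 2 of 4 in Hist3 and 1 of 1 in Hist4.

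**Figure D1:**
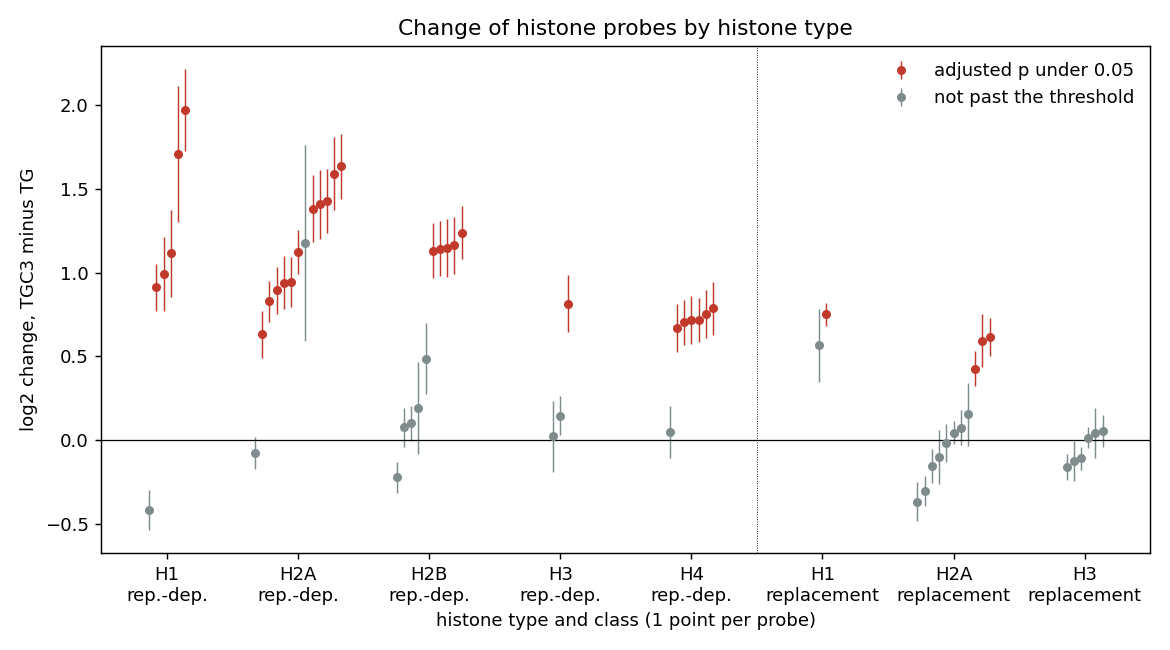
Change of each tested histone probe (log2, TGC3 minus TG, vertical axis) by histone type and class (horizontal axis). Points are probes, bars are the standard error from limma, and red points have an adjusted p under 0.05: they make up 28 of 39 replication-dependent probes and 4 of 19 replacement probes, with 0 of 6 among the replacement H3 probes.

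The same class stood apart by array. The median of the 39 probes, each taken relative to its own TG mean, was 0.72, 1.16 and 0.75 on TGC3 1 to 3 and 0.03, -0.09 and 0.09 on TG 1 to 3. TGC3 2 was the highest array for all 28 probes that were past the threshold. Without TGC3 2, 27 probes were past the threshold and the median change was 0.74. The array that moved the count most was TG 2, without which 17 probes were past it. The probes past the threshold in all 6 fits that left out 1 array numbered 17, of which 2 were H1, 10 were H2A and 5 were H2B probes.

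For the 19 tested replacement probes, medians by array ran from -0.06 to 0.06, with the TGC3 arrays at -0.04, 0.06 and -0.04. Of these 19, 4 (21.1%) were higher and 0 were lower (5 and 2 at an unadjusted p under 0.05), and their median change was 0.04. That share lies nearer to the 13.7% of all probes than the share in the replication-dependent class does. The difference between the classes as such was not tested, since the members share sequence and source.

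**Figure D2:**
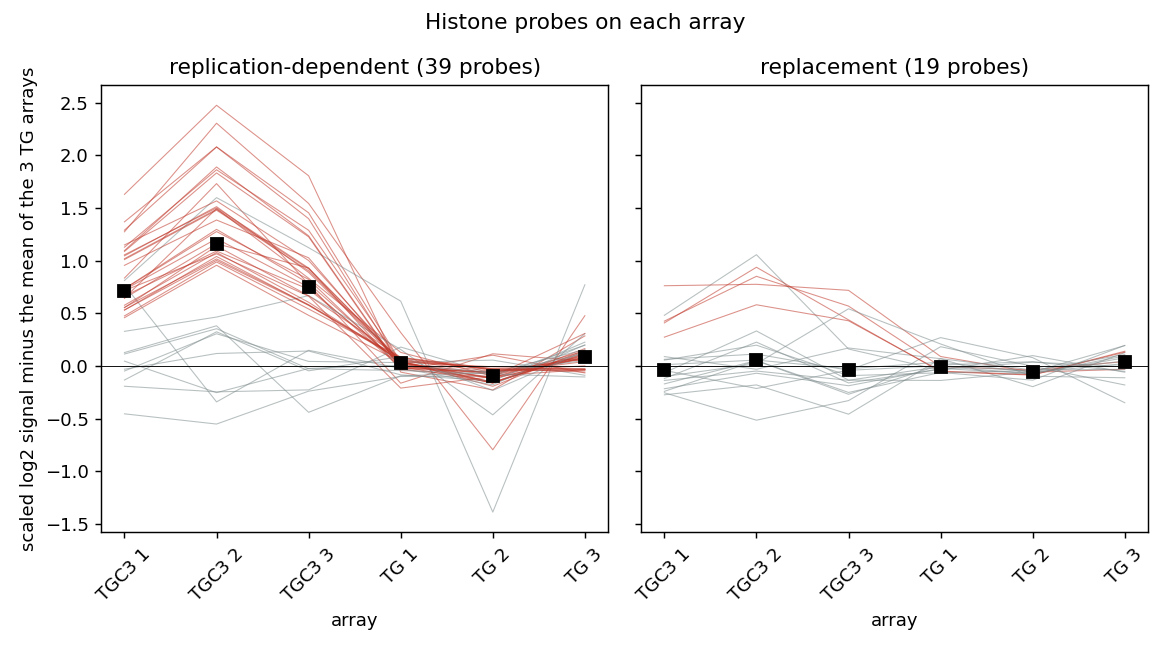
Scaled log2 signal of each tested histone probe on each of the 6 arrays, minus the probe's mean over the 3 TG arrays (vertical axis), with replication-dependent probes on the left and replacement probes on the right. Lines are probes, red where adjusted p was under 0.05, and black squares are medians: on the left 0.72, 1.16 and 0.75 on the TGC3 arrays, on the right between -0.06 and 0.06 on all 6.

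Linker histones gave the largest single change. The probe of Hist1h1b, which encodes the linker histone H1.5, is shown for that reason (chr13:21871923-21871982, minus strand, mm9).
Hist1h1b: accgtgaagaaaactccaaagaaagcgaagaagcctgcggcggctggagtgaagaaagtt
Its intensity was 5020, 9268 and 5949 on TGC3 1 to 3 and 1474, 1337 and 2065 on TG 1 to 3. Every TGC3 array lay above every TG array, with TGC3 2 highest. The change was 1.97 ± 0.24 (SE, n = 3 and 3), or 3.92-fold, with limma's adjusted p = 0.00494.

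Hist1h1d, another linker histone of the same cluster, read 1258, 2641 and 1590 in TGC3 and 613, 289 and 756 in TG at its probe starting at base 551 of the transcript record (bases counted from 0). The groups did not overlap, but both were wide, and the change of 1.71 ± 0.41 (limma, adjusted p = 0.0312) was past the threshold in 2 of the 6 fits that left out an array. Hist1h1a (1.11), Hist1h1e (0.99) and Hist1h1t (0.91) were also higher. Hist1h1t is the linker histone known from testis, and its probe was dim, at 40.0 to 58.9 in TGC3 and 23.6 to 26.5 in TG, though well above background on all 6 arrays. Hist1h1a lost the threshold without TG 1, TG 2 or TG 3, and Hist1h1e was past it in 2 of the 6 such fits.

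Hist1h1c, which encodes H1.2 and is known to give polyadenylated transcripts too, had a negative change, unlike the other tested cluster H1 probes. Those probes start between bases 351 and 663, so they read another part of the transcript. Hist1h1c read 953, 916 and 1160 in TGC3 and 1151, 1176 and 1562 in TG on its only probe, at base 1342. Scaled to each array, the groups did not overlap, and the change was -0.41 ± 0.12 with limma's adjusted p = 0.0549, just outside the threshold.

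H2A, which pairs with H2B in the core, had the most probes higher. Hist1h2ab read 33936, 57095 and 37779 in TGC3 and 12762, 11678 and 14512 in the TG arrays. The lowest TGC3 array was well above the highest TG array, and the change was 1.63 ± 0.19 (limma, adjusted p = 0.00433). Its probe is the one shown above that ends in the stem-loop letters.

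Next came a set of H2A probes with much sequence in common. Hist1h2af at base 20 read 28797, 51148 and 32569 in TGC3 and 11101, 10167 and 13796 in TG, a change of 1.59 ± 0.22 (limma, adjusted p = 0.00639). Its probe shares 40 unbroken bases with that of Hist1h2ak (change 1.38) and 26 with that of Hist1h2ai (1.41). These 3 probes were all higher, and the transcripts they read cannot be told apart. The trio shown above also moved together: Hist1h2aa was higher by 0.89 and Hist1h2af at base 328 by 0.83, beside 0.62 for the replacement gene H2afj at base 412. Hist1h2aa, known as a testis H2A, thus has a probe on which its signal cannot be told from that of its neighbours. Hist1h2ao (1.12) and the pair of Hist2h2ac probes, which share a run of 51 bases (0.94 on both), completed the bright H2A probes.

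Hist3h2a, from the small cluster on chromosome 11, was past the threshold on 1 of its 2 probes. Its probe at base 200 (chr11:58768387-58768446, plus strand, mm9) is shown because it shares no run of 20 bases with another member's probe. Whether it matches transcripts of other H2A genes was not tested.
Hist3h2a: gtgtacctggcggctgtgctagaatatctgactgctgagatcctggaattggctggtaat
It read 29160, 49867 and 34187 in TGC3 and 12930, 11835 and 14785 in TG, a change of 1.43 ± 0.19 (limma, adjusted p = 0.00613). The probe at base 767 read 2501, 2090 and 2500 in TGC3 and 2302, 2241 and 2624 in TG. There the groups overlapped, and the change was -0.08 ± 0.09 (limma, adjusted p = 0.590), with a sign that turned (0.01) without TGC3 2.

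Of the H2A probes, 2 of the 13 tested were not past the threshold: this one and Hist1h2ae. Hist1h2ae, the third of the stem-loop probes, had a change of 1.18 ± 0.59, with 53.7, 95.2 and 69.9 in TGC3 and 44.3, 11.3 and 54.5 in TG. Unscaled intensities overlapped, while after scaling all TGC3 arrays lay above all TG arrays. TG 2 was not well above background, and the change was not past the threshold (limma, adjusted p = 0.197). Most of this probe lies beyond the stem-loop, where such mRNAs usually end, and what it hybridised to was not tested.

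Of the H2B probes, 5 of 10 were higher. Hist1h2bk was higher on both its probes, at base 106 by 1.24 ± 0.16 (limma, adjusted p = 0.00544) and at base 172 by 1.15 ± 0.17. On the first, TGC3 arrays read 3106, 4264 and 2940 and TG arrays 1361, 1213 and 1584, without overlap. The second matches the Hist1h2bm probe (1.13) at 58 of 60 bases, and Hist3h2bb-ps (1.14), which RefSeq lists as a pseudogene, shares a run of 26 with each. Hist1h2ba, known as the testis H2B, read 2393, 3350 and 2301 in TGC3 and 1121, 972 and 1335 in TG, a change of 1.16 ± 0.17 (limma, adjusted p = 0.00744). It shares no run of 20 bases with another member's probe.

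The other 5 tested H2B probes were not past the threshold. Hist3h2ba (0.10), Hist1h2bp (0.08) and Hist2h2bb (0.19) overlapped between the groups. Hist1h2bc had a change of 0.49 and limma's adjusted p = 0.148. Hist2h2be, like Hist1h1c a gene known for polyadenylated transcripts, read 705, 698 and 722 in TGC3 and 862, 737 and 782 in TG. All its TGC3 arrays were below all its TG arrays, yet the change of -0.22 ± 0.09 was not past the threshold (limma, adjusted p = 0.132).

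H3 was read by 3 replication-dependent probes only. Hist1h3a, whose probe carries the whole stem-loop string, read 577, 755 and 583 in TGC3 and 287, 316 and 455 in the TG arrays. The groups did not overlap, and it was higher by 0.81 ± 0.17 (limma, adjusted p = 0.0209), though not past the threshold without TG 1 (adjusted p = 0.0643) or TG 2 (adjusted p = 0.0698). The other probes are shown because they lie in a stretch of H3 that the genes share, and because they did not move with the class. Capitals mark their common 17 bases. Hist1h3d lies at chr13:23667979-23668038 and Hist2h3c1 at chr3:96051157-96051216, both on the plus strand in mm9.
Hist1h3d: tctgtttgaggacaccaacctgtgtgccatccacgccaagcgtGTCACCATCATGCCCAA
Hist2h3c1: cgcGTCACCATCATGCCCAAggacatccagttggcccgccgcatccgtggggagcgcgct
Hist1h3d read 48952, 59430 and 46590 in TGC3 and 41513, 41423 and 51249 in TG, so that the groups overlapped, and its change was 0.15 ± 0.11 (limma, adjusted p = 0.391). Hist2h3c1 read 66999, 82131 and 47441 in TGC3 and 54356, 56650 and 71301 in TG, with a change of 0.02 ± 0.21 (limma, adjusted p = 0.948). Both were among the brightest of the replication-dependent probes that were not past the threshold, and both changes turned below 0 when arrays were centred on their medians.

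The H4 probes gave values close to one another. The 6 past the threshold had changes between 0.67 and 0.79, or 1.59-fold to 1.72-fold. Hist1h4f read 84583, 120396 and 91427 in TGC3 and 57366, 55283 and 60049 in TG, a change of 0.70 ± 0.13 (limma, adjusted p = 0.0158). Again TGC3 2 was highest and the groups did not overlap. Its probe shares a run of 50 bases with the Hist1h4d probe at base 194 (0.72) and 29 with that of Hist2h4 (0.72). All 6 lost the threshold without TG 2, where limma's adjusted p ran from 0.0530 (Hist2h4) to 0.0728 (Hist1h4a). Hist1h4a also lost it without TG 1 (limma, adjusted p = 0.0572) or TG 3 (0.0667). Hist1h4d lost it at base 36 without TG 3 (0.0576), and at base 194 without TG 1 (0.0503) or TG 3 (0.0578). Hist1h4i (0.05), read at base 574, was the H4 probe that did not pass.

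Position in the transcript divided the replication-dependent probes. The limit of 1000 bases was chosen after the values were seen, at a gap between the probe at base 767 and the next at 1340. All 36 probes before it were tested and 28 were past the threshold, with a median change of 0.92. Of the 9 probes beyond it, 6 were well above background on fewer than 3 arrays, and 0 of the 3 tested were past the threshold (Hist1h1c, Hist2h2be and Hist2h2bb). The 6 untested were Hist1h1d at base 2302, Hist1h2ac, Hist1h2al, Hist1h2be, Hist1h2bq and Hist4h4 at base 1788. Among the 23 replacement probes, by contrast, 9 of 11 beyond that limit were tested, and 2 of the 9 were higher. Before base 1000 the tested replication-dependent H2A, H2B, H3 and H4 probes divided too. Those at base 446 or before were higher, except Hist1h3d (base 308). None from base 510 to 767 was past the threshold (Hist1h2bp, Hist3h2ba, Hist1h2ae, Hist2h3c1, Hist1h4i, Hist1h2bc and Hist3h2a). The H1 probes at bases 351 to 663 were all higher. Position was not tested apart from gene.

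For the replication-dependent genes read on both sides of that limit, the distal probe gave no value. Hist1h1d read 3.07 to 4.28 in TGC3 and 2.93 to 3.62 in TG at base 2302, not well above background on any array, while its probe at base 551 was higher. Hist4h4 was higher at base 176 (0.75 ± 0.14) and not well above background on any array at base 1788. Hist1h2ac at base 2194 was well above background on 1 TGC3 array and no TG array, and its change was not tested. What the distal probes hybridised to was not tested. The labels name a low-input linear amplification kit, and how far it copied transcripts without a poly(A) tail is not given in the sources used here.

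**Figure D3:**
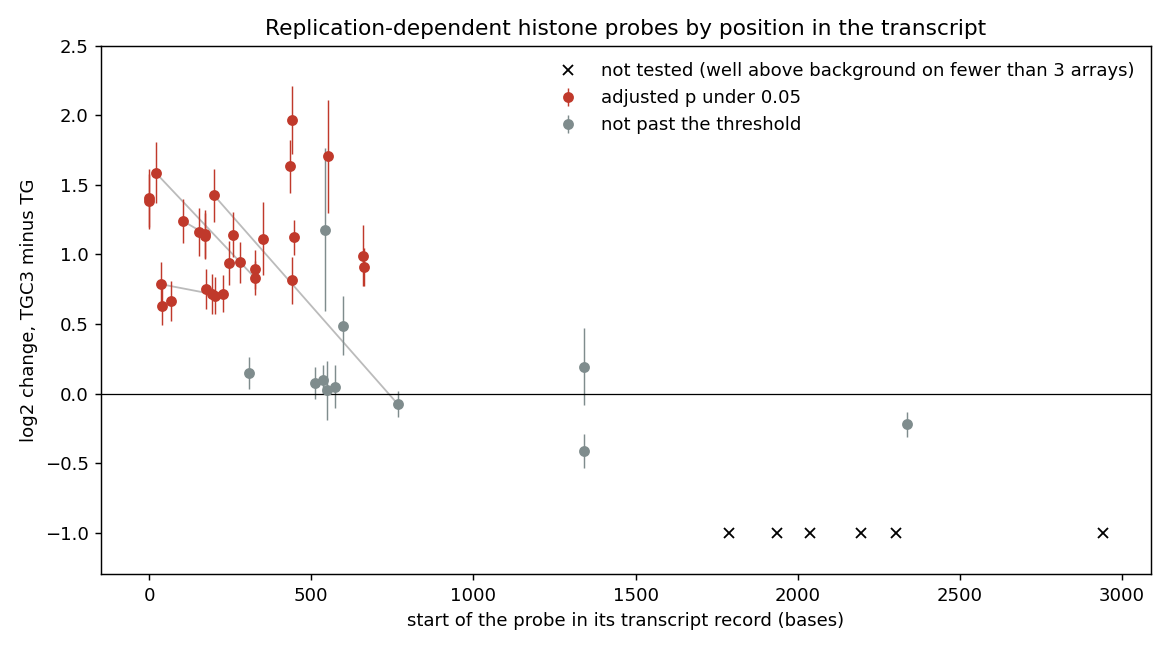
Change of each replication-dependent probe (log2, TGC3 minus TG, vertical axis, with the standard error as a bar) against the base at which the probe starts in its transcript record (horizontal axis). Red points have an adjusted p under 0.05, lines join probes of 1 gene, and crosses at the bottom mark the 6 probes that were not tested and have no value: 28 red points lie before base 1000 and 0 after it.

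Shared sequence runs through the higher probes. Of the 28, 16 share at least 20 unbroken bases with another member's probe, so that they fall into 18 families of probes. Of the other 17 replication-dependent probes, 0 share such a run. The 28 probes are thus fewer than 28 separate readings. Probes were compared with each other and not with transcripts, so the 18 families need not be separate readings either. The Hist1h4d probes at bases 36 and 194, of 1 gene, fall into different families.

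The replacement histones past the threshold were 4. H1fx, a linker histone outside the clusters, was the most stable: on its probe at base 1067 it read 14946, 15507 and 15209 in TGC3 and 8870, 8161 and 9006 in TG, and the change was 0.75 ± 0.07 (limma, adjusted p = 0.00228), past the threshold without any 1 array. The files give that probe no chromosome position, and it was matched to H1fx by synonym only, so that its identity is unsure. The other H1fx probe, at base 380, was matched by accession and read 17.2, 16.4 and 19.2 in TGC3 and 9.36, 6.84 and 11.2 in TG. It was well above background on 2 TGC3 arrays and no TG array, and its change was not tested. H2afx, which marks DNA breaks when phosphorylated and is transcribed into a stem-loop form as well, was higher by 0.59 ± 0.16 (limma, adjusted p = 0.0424). It read 8834, 13093 and 9454 in TGC3 and 6062, 6042 and 7655 in the TG arrays. The groups did not overlap, but it was past the threshold in 1 of 6 fits that left out an array, the one without TGC3 2.

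H2afz, the H2A.Z placed at promoters, and H2afj each had probes that differed. H2afz at base 441 read 60157, 76506 and 70272 in TGC3 and 45475, 45305 and 56899 in TG, a change of 0.43 ± 0.10 (limma, adjusted p = 0.0329), and lost the threshold without TGC3 2, TGC3 3, TG 1 or TG 2. Its probe at base 2267 was at -0.10 ± 0.16, and the files place that probe on chromosome 6 while RefSeq places the gene on chromosome 3, so that its identity is unsure. H2afj at base 412, the probe shown above with the H2A letters in common, read 156893, 216526 and 181667 in TGC3 and 109972, 109776 and 125575 in the TG arrays. The groups did not overlap, and its change was 0.62 ± 0.12 (limma, adjusted p = 0.0152), lost without TG 1 (0.0520) or TG 2 (0.0551). H2afj at base 1650, which shares no run of 20 bases with another member's probe, read 767, 658 and 764 in TGC3 and 981, 880 and 843 in TG. That change was -0.37 ± 0.12, not past the threshold (limma, adjusted p = 0.0715) and opposite in sign to that at base 412.

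Among the 6 probes of the H3.3 genes, 0 were past the threshold (0 at an unadjusted p under 0.05) and changes ran from -0.16 to 0.05, with groups that overlapped on all 6. H3f3b at base 521 read 90688, 102813 and 85852 in TGC3 and 78850, 81566 and 98176 in TG, a change of 0.05 ± 0.10 (limma, adjusted p = 0.719). H3f3a at base 938 read 29235, 30979 and 29868 in TGC3 and 28098, 26824 and 30742 in TG, a change of 0.01 ± 0.06 (limma, adjusted p = 0.889). These changes turned below 0 with median centring, which moves the median of all probes from -0.02 to -0.19. The H2A.Z relative H2afv was at 0.05 ± 0.07 (limma, adjusted p = 0.670) and likewise turned.

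MacroH2A, an H2A with a large extra domain that is found on inactive chromatin, had values below 0 on its 3 H2afy probes, none of them past the threshold. The probe at base 857 read 879, 964 and 812 in TGC3 and 1054, 998 and 1085 in TG, without overlap, and had a change of -0.30 ± 0.09 with limma's adjusted p = 0.0569, just outside the threshold. It was past it without TGC3 2. The probes at base 565 (-0.15; past it without TGC3 2) and 1084 (-0.02) were not past the threshold either, and the sign of the latter turned under quantile normalization. H1f0, the linker histone of resting cells, read 423, 648 and 356 in TGC3 and 279, 313 and 304 in TG at base 1015. The change there was 0.57 ± 0.22 (limma, adjusted p = 0.115). Its probes at bases 1288 and 1294 were not well above background on any array and were not tested. H2afy2 was well above background on TG 3 alone.

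Promoters of the members, from RefSeq on GRCm38.p6, were searched over 250 bases before the start, on both strands. The 33 replication-dependent promoters (32 genes) and 10 replacement promoters that the table holds were set beside all 32851 promoters. The CCAAT box was found in 29 of 33 and 5 of 10, beside 33.8% of all. TATAAA was found in 17 of 33 and 1 of 10, beside 12.4%, and the octamer ATTTGCAT in 11 of 33 and 1 of 10, beside 1.6%. AAACACA, the H1 box, was found in 5 of the 6 H1 promoters and 6.25% of all. A TATAAA match can run into an AAACACA match, and such overlaps were not counted apart. The E2F strings TTTGGCGC and TTTCGCGC were found in 0 and 3 of 33 (0 and 9.09%), beside 0.417% and 0.256% of all promoters, and in 0 of the 10 replacement promoters.

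Of the H1 promoters, 4 are shown because their genes gave the largest rise (Hist1h1b), the value below 0 (Hist1h1c) and a rise without the H1 box (Hist1h1a), beside Hist1h1e. Each is the 200 bases before the start in the gene's direction, with the CCAAT, TATA and H1 boxes in capitals on either strand. Positions are chr13:21780626-21780825 (minus strand) for Hist1h1b, chr13:23622559-23622758 (minus) for Hist1h1e, chr13:23738607-23738806 (plus) for Hist1h1c and chr13:23763468-23763667 (plus) for Hist1h1a, all in GRCm38.p6.
Hist1h1b: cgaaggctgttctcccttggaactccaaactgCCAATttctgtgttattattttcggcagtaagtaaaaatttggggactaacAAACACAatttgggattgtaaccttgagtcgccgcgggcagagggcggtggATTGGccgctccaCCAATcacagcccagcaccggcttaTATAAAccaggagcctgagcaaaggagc
Hist1h1e: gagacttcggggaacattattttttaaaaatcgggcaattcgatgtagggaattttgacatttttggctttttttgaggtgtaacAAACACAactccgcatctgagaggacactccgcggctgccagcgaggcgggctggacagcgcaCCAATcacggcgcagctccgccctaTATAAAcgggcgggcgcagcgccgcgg
Hist1h1c: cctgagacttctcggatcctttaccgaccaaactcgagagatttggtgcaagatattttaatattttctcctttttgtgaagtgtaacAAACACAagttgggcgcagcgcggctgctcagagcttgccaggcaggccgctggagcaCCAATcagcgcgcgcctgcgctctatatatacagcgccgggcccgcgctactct
Hist1h1a: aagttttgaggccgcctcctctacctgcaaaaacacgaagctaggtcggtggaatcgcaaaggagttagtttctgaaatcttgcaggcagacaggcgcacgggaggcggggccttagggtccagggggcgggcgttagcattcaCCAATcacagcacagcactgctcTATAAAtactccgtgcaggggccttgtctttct
In Hist1h1b, Hist1h1e and Hist1h1c the H1 box starts 117, 115 and 112 bases before the start and the last CCAAT 53, 52 and 54 bases before it. The placing of the H1 box and this CCAAT is thus shared by genes whose probes were higher and by Hist1h1c, whose probe was not. TATAAA was found in Hist1h1b, Hist1h1e and Hist1h1a, 28, 27 and 33 bases before the start, and not in Hist1h1c. Near its start Hist1h1c holds the like letters tatatata, left in lower case, so it cannot be said to lack a TATA box. A match is a description of letters and not a site in use. Some of the genes also share a promoter: those of Hist1h2bq and Hist1h2ao overlap by 267 bases, and those of Hist1h2ba and Hist1h2aa by 220.

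Genes that act on histone supply were described from lists, with 1 probe a gene, over 16395 genes of which 16.6% were higher and 9.45% lower. For histone gene transcription, 5 of 12 measured genes were higher and 0 lower (6 and 2 at an unadjusted p under 0.05), with a median change of 0.26. E2f2, a factor that drives S phase genes, read 5594, 7311 and 6292 in TGC3 and 3411, 3280 and 4669 in TG, a change of 0.71 ± 0.14 (limma, adjusted p = 0.016). Cdk2, the kinase that activates Npat, was higher by 1.25 ± 0.16 on a dim probe (52.4 to 54.3 in TGC3, 17.6 to 29.6 in TG). The cyclins that bind it, Ccne2 (0.45) and Ccne1 (0.31), and E2f1 (0.43) were the others. Npat itself, the coactivator that binds histone promoters, had a change of 0.35 ± 0.23 (limma, adjusted p = 0.289), with groups that overlapped. The count of 5 fell to 1 without TG 1 and to 2 without TG 2.

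Of 25 measured genes of histone mRNA processing and decay, 0 were higher and 3 lower (2 and 8 at an unadjusted p under 0.05, limma), with a median of -0.06. Slbp, the stem-loop binding protein, read 8275, 9737 and 9472 in TGC3 and 7543, 8344 and 10000 in TG, a change of 0.03 ± 0.09 (limma, adjusted p = 0.821). The lower genes were the cap-binding subunits Ncbp2 (-0.48) and Ncbp1 (-0.26) and the decay helicase Upf1 (-0.25). The count of lower genes fell to 1 without any 1 array other than TGC3 2, and to 1 with quantile normalization. No gene of this list was past the threshold as higher in the fit reported here.

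Histone chaperones and assembly factors went both ways, with 9 of 40 measured genes higher, 3 lower and a median of -0.01. The largest rises were in Oip5 (2.14-fold, limma, adjusted p = 0.0300) and Cenpa (1.06 ± 0.14 on the log2 scale, adjusted p = 0.00529), the loading factor and the H3 variant of centromeres. Cenpa read 1594, 2165 and 1584 in TGC3 and 757, 748 and 935 in TG, without overlap. Next came Asf1b (0.88) and Chaf1a (0.75), which hand H3 and H4 to newly replicated DNA. Hira (0.01) and Daxx (-0.12), which place H3.3, did not pass. Outside the naming rule and chosen after their values were seen, the lower genes were Atrx (-0.30), Asf1a (-0.30) and Vps72 (-0.29). Counts without 1 array ran from 4 to 8 for higher genes and from 0 to 2 for lower ones.

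The cell cycle lists were higher in TGC3 too. Of 50 S phase genes 25 were higher and 0 lower (median 0.40), and of 49 genes of G2 and M phase 46 were higher and 0 lower (median 1.40). Without TG 1 the S phase count was 7 and the other 39, and without TG 2 they were 9 and 38. By array, the medians of the S phase list were 0.38, 0.54 and 0.35 in TGC3, and those of the G2 and M list 1.17, 1.77 and 1.20. TGC3 2 was thus highest for both, as for the replication-dependent histones. These lists and the histones come from the same contrast, and their part in each other's change was not tested.

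**Figure D4:**
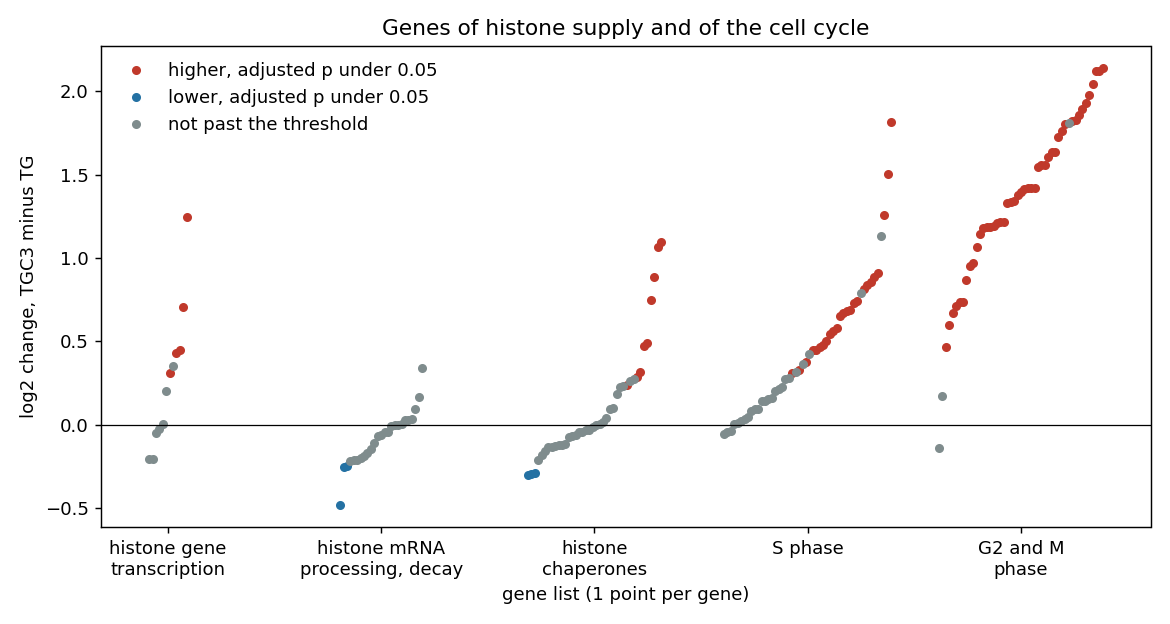
Change of each measured gene (log2, TGC3 minus TG, vertical axis) in the lists of histone gene transcription, histone mRNA processing and decay, histone chaperones, S phase, and G2 and M phase (horizontal axis, 1 point per gene, ordered by change). Red and blue points are higher and lower at an adjusted p under 0.05: 5, 0, 9, 25 and 46 higher and 0, 3, 3, 0 and 0 lower.

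As a check of the labels, Cxcr3 read 68779, 66107 and 73352 in TG and 23.8, 33.0 and 27.0 in TGC3. All 10 CD8 T cell markers were measured, with a median change of -0.20, 0 higher and 3 lower. Their summed signal, in multiples of each array's 75th percentile, was 753 to 821 in TGC3 and 838 to 935 in TG. The arrays were alike in depth: 58.9% to 63.8% of probes were well above background, and the 75th percentile of intensity was 594 to 623 in TGC3 and 561 to 620 in TG. The TGC3 arrays lay on 1 slide and the TG arrays on another, so slide and genotype cannot be told apart.

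Markers of other cells differed between the groups in some lists, and their part in the histone values was not tested. Summed signals overlapped between the groups for macrophage and monocyte, B and plasma cell, CD4 T cell and hepatocyte markers. Bright genes weigh most in a sum, such as Cd79b (change -0.03) for B cells, so changes of dim markers can be hidden in it. Neutrophil markers were measured for 6 of 14 genes (3 higher, 1 lower), with a summed signal of 1.72 to 8.15 in TGC3, highest on TGC3 2, and 0.439 to 0.498 in TG. S100a9 read 696, 3678 and 1429 in TGC3 and 4.1 to 14.6 in TG. Mmp9 went the other way, at 31.0 to 45.8 in TGC3 and 164 to 192 in TG (change -2.31). Mpo and Retnlg were not past the threshold, and Camp, Ltf, Ngp and Elane were not measured. Macrophage and monocyte markers were measured for 7 of 14 (3 higher, sums of 2.24 to 7.41, highest on TGC3 2, and 2.30 to 2.82). Lyz2, among the higher ones, read 193, 1364 and 352 in TGC3 and 90.3, 24.4 and 46.2 in TG. Clec4f, Emr1 and C1qa were not measured. B and plasma cell markers were measured for 7 of 12 (5 higher, 1 lower, sums of 6.34 to 6.84 and 6.34 to 7.64), with Pax5 and Ebf1 not measured. The sums were 30.7 to 36.97 and 41.4 to 45.7 for dendritic cell markers (7 of 10, 2 higher, 1 lower), and 1.01 to 1.17 and 0.887 to 0.919 for erythroid ones (5 of 10, 2 higher). They were 0.761 to 0.840 and 0.647 to 0.729 for endothelial and stellate markers (4 of 10, 2 higher), 0.127 to 0.172 and 0.0654 to 0.161 for hepatocyte markers (2 of 15, 1 higher, Alb not measured), and 0.0678 to 0.112 and 0.0814 to 0.0861 for CD4 T cell markers (2 of 3, 0 higher or lower, Foxp3 not measured).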

How the data were processed

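Per the file headers, the arrays were read with Agilent Feature Extraction 10.7.3.1 (the submitters' processing notes name 10.7.1.1). The processed signal is an intensity that the authors deposited after background subtraction within each array and without normalization between arrays, per the file headers. The deposited matrix is on a log2 scale; its steps are not given in the sources used here, and it served as an alternative. Columns of unknown sample numbered 0.

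Of 45018 spots, 43379 were not controls and held 41174 probes, of which 11 were left out for spots marked as outliers. Spots of a probe were averaged. The log2 signal minus each array's 75th percentile was compared with limma 3.58.1 in R 4.3.3 (lmFit, eBayes, Benjamini-Hochberg) over the 25103 probes that 3 or more of the 6 arrays showed well above background. Gene lists used the brightest tested probe of each gene. Intensities are unscaled. Where a group was not well above background on any array, no fold is given. Python 3.11.15 with pandas 2.3.3, numpy 2.4.6 and matplotlib 3.10.9 was used for tables and figures. The procedure was tested on simulated data.

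Members and lists were chosen with earlier results of these data known. Named were all replacement probes past the threshold and up to 12 others, the 10 largest changes of replication-dependent probes, the 4 brightest not past it, genes whose probes disagreed, up to 4 genes of each supply list with Slbp, Npat and Cenpa, and Cxcr3. Names were matched to RefSeq by accession (60 probes) or synonym (8). Other probes were named after their values were seen. Alternatives covered normalization, background, filters, the variance model, the replicate number and left-out arrays. Array number limits the precision. Samples of the same replicate number correlated at -0.00142, -0.0446 and -0.105 in their deviations and were not treated as pairs.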

Additional observations from a re-analysis of the deposited data

How the results depend on the processing

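Replication-dependent probes numbered 22 to 28 higher under every other planned scaling, filter and variance model, except normexp background correction, which gave 0 (0 higher and 1 lower over all probes, 702 at an unadjusted p under 0.05, limma) with medians of 1.11 and 0.25 for the 2 classes, and 0 higher in the replacement, transcription, chaperone, S phase and G2 and M counts and 0 lower in the processing and chaperone counts. With aberrant spot backgrounds replaced, 28 were higher. Leaving out 1 array gave 17 to 28. Lower replication-dependent probes were 2 with median centring and 1 with the repaired backgrounds, all 6 arrays above background, probes above the median signal, trend and robust settings, array weights or the replicate block. With the replicate block, which is no pairing here, 22 were higher, the replacement count was 2, transcription 1, processing lower 1, chaperones 3 and 0 lower, and S phase 7.

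Replacement counts (4 and 0) became 2 and 5 with median centring, which moves the split over all probes from 3441 higher and 2101 lower to 2295 and 7513 (2780 and 2395 with quantile normalization, 1124 and 1930 above the median signal), and lower counts were 1 with repaired backgrounds or all 6 arrays, and 2 above the median signal, with trend or with array weights. Leave-one-out gave 1 to 3 higher and 0 to 2 lower. Their median was -0.13 with centring, 0.15 with 1 probe a gene and -0.018 to 0.069 with arrays left out. Transcription genes higher were 3 by quantile, cyclic loess, the deposited values or no filter, 2 by centring or above the median signal, and 1 to 5 with arrays left out; lower were 2 by centring and 1 by repaired backgrounds, above the median signal, trend or weights. Processing genes higher were 1 by cyclic loess, trend or weights; lower were 11 by centring, 7 by trend, 1 by quantile, loess, the deposited values or no filter, and 1 to 2 with arrays left out. Chaperones higher were 4 with no filter and 4 to 8 with arrays left out; lower were 11 by centring, 1 above the median signal, 0 with no filter and 0 to 2 with arrays left out. S phase genes higher were 15 by centring, 14 with no filter and 7 to 27 with arrays left out, and G2 and M genes lower were 1 by centring. The causes were not tested.

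Among the named probes, signs turned for some of those with a change between -0.16 and 0.15. Median centring gave -0.12 (H3f3b at base 521), -0.13 (H2afv), -0.16 (H3f3a at 938), -0.13 (H3f3b at 1476), -0.15 (Hist2h3c1), -0.028 (Hist1h3d) and -0.074 (Hist3h2ba). Normexp gave 0.24 (H3f3a at 156), 0.25 (H3f3a at 158), 0.39 (H2afy at 1084), 0.23 (H2afy at 565) and 0.24 (Hist3h2a at 767). H2afy at 1084 was 0.063 by quantile, 0.062 by the deposited values, 0.068 by cyclic loess and 0.023 by repaired backgrounds, and array weights gave 0.0015 for Hist3h2a at 767 and -1.7e-05 for Hist3h2ba. With arrays left out the ranges were -0.018 to 0.13 (H3f3b at 521), -0.015 to 0.034 (H3f3a at 938), -0.10 to 0.14 (H3f3b at 1476), -0.14 to 0.054 (H2afy at 1084), -0.16 to 0.25 (Hist2h3c1), -0.14 to 0.011 (Hist3h2a at 767), -0.0021 to 0.17 (Hist3h2ba) and -0.27 to 0.037 (H2afz at 2267). Signal over background limits the 10 untested probes, and the 6 arrays limit the precision.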
